A study of Cavia porcellus with 10 samples.

Results

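The 38 genes described here encode the enzymes that feed pyruvate and fatty acids into mitochondrial respiration. They cover pyruvate dehydrogenase with its regulators, pyruvate carboxylase, the tricarboxylic acid (TCA) cycle and fatty acid beta-oxidation. They were chosen by name: a table line was taken where its symbol equalled a listed gene, ignoring case, with the line of highest mean count where a symbol had several. This gave 38 of 17642 lines that carry a symbol. All 38 listed genes were measured and all 38 passed the filter on low counts. The whole sclera, the tough collagenous coat of the eyeball, was profiled by RNA-seq in 10 eyes of male guinea pigs (Cavia porcellus) aged 2 to 3 weeks. In the myopia group (5 libraries) lenses on both eyes had induced nearsightedness, and in the control group (5 libraries) the animals were untreated. Each library was made from 1 eye. Lens power and days of wear were not given in the sources used here. Nor do the labels tie eyes to animals, so each p-value speaks only of the spread between these samples.

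Pyruvate dehydrogenase turns pyruvate, the end product of glycolysis, into acetyl-CoA inside the mitochondrion. Its activity is set by kinases that switch it off and phosphatases that switch it on again. Beta-oxidation reaches the same acetyl-CoA from fatty acids, which enter through the carnitine shuttle and are shortened in repeated rounds. The TCA cycle oxidises acetyl-CoA and hands electrons to the respiratory chain. The main cells of the sclera are fibroblasts, in a tissue with few blood vessels, and oxygen supply to scleral fibroblasts is a topic of work on myopia.

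The libraries held 32309258 to 35430797 counts each. The untreated libraries were not alike: on the first principal component of log2 CPM (counts per 1000000), which held 77.1% of the variance, myopia libraries scored 61.5 to 72.5, control libraries 4 and 5 scored -49.7 and -24.6, and control libraries 1 to 3 scored -94.6 to -81.5. Some fold changes, and the counts of members called, are therefore given without control libraries 4 and 5 too. Levels are CPM scaled by TMM factors (trimmed mean of M values, 1.11 to 1.25 in myopia and 0.777 to 0.968 in control). Higher and lower are relative to that scale: the median log2 fold change of all genes was 0.03 with TMM and 0.47 with scaling by total count alone. Of 12 scleral fibroblast markers 11 were measured, and their summed level was 71951 to 98897 CPM in myopia and 126692 to 159327 CPM in control. COL1A1 alone averaged 35547 CPM in myopia and 82710.0 CPM in control, and of the 11 markers 5 were called lower, 3 higher and 3 did not pass. DCN, for one, averaged 7614 CPM in myopia and 5689 CPM in control. Markers of other tissues, which a dissection can carry along, were present in both groups. Skeletal muscle markers (17 of 17 measured) summed to 2335 to 5781 CPM in myopia and 3636 to 8518 CPM in control. Of these 17, 7 were called lower, 2 higher and 8 did not pass, and Ttn averaged 223 CPM in myopia and 53.2 CPM in control. Leukocyte markers (10 of 10 measured) summed to 188 to 255 CPM in myopia and 442 to 625 CPM in control, and red blood cell markers (4 of 4 measured) to 100.1 to 456 CPM in myopia and 2503 to 10558 CPM in control. Of 9 leukocyte markers tested, 7 were called lower, 1 higher and 1 did not pass, and all 4 red blood cell markers were called lower. Photoreceptor markers (8 of 8 measured) summed to 53.1 to 222 CPM in myopia and 228 to 388 CPM in control, and pigment cell markers (8 of 8 measured) to 48.3 to 221 CPM in myopia and 146 to 429.9 CPM in control. Of the photoreceptor markers 5 were called lower and 0 higher, and of the pigment cell markers 3 lower and 2 higher. Adipocyte markers (10 of 10 measured) summed to 236 to 376 CPM in myopia and 237 to 484 CPM in control, with ADIPOQ, which marks adipocytes, at 61.0 CPM in myopia and 57.2 CPM in control on average and LEP at 0 in every library. Of 8 adipocyte markers tested, 5 were called lower, 0 higher and 3 did not pass. Endothelial and smooth muscle markers (9 of 9 measured) summed to 1574 to 2403 CPM in myopia and 1944 to 2720 CPM in control, with 3 called lower, 2 higher and 4 that did not pass. These marker calls are on the TMM scale, where 36.9% of all genes tested were called higher and 35.1% lower. With total count scaling 4 fibroblast markers were called lower and 5 higher, and 2 skeletal muscle markers lower and 3 higher. Adipocyte markers then had 1 lower and 0 higher, leukocyte markers 7 lower and 2 higher, and all 4 red blood cell markers were lower. The part of these tissues in the results below was not tested, and in bulk samples fewer cells of a type and less RNA per cell cannot be told apart.

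Members of the module moved in both directions in the myopic sclera. By edgeR's quasi-likelihood test, adjusted by Benjamini-Hochberg over 14683 genes, 12 of the 38 members rose (31.6%), 15 fell (39.5%) and 11 did not pass an adjusted p of 0.05. The background was close to this: 71.9% of all genes tested were called, 36.9% higher and 35.1% lower. The median log2 fold change was -0.10 over the members and 0.03 over all genes. With scaling by total count the median of the members became 0.35, with 22 called higher and 11 lower, against 52.0% and 18.7% of all genes. The 5 myopia libraries lay wholly above the 5 control libraries for 10 members and wholly below for 14. Such groups without overlap were found for 57.8% of all genes tested, 29.8% higher and 28.0% lower. Of the members, 9 (23.7%) differed by 1 or more on the log2 scale, against 32.8% of all genes tested. The shares of the module as a whole were thus near those of all genes on the TMM scale. Within several enzyme complexes some subunits were called and others were not, or were called in the other direction, as given below by role.

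**Figure D1:**
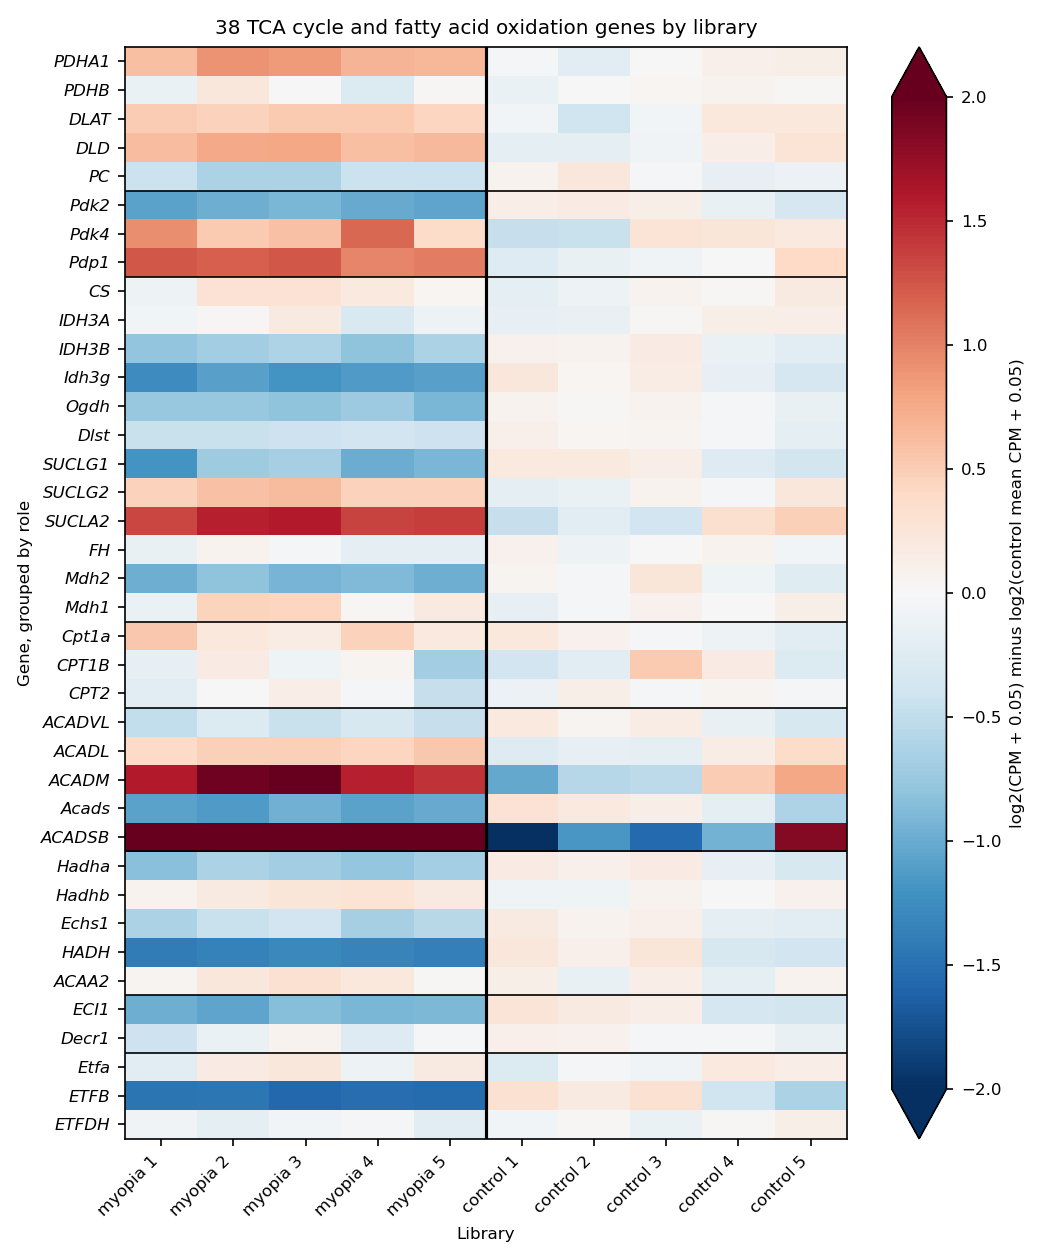
Level of each of the 38 genes (rows, grouped by role) in each library (columns, 5 myopia libraries left of 5 control libraries). Colour is log2(CPM + 0.05) relative to the control mean and is capped at 2 in either direction. Rows such as ACADM and SUCLA2 are red and ETFB and HADH blue across all 5 myopia libraries, and control libraries 4 and 5 are shaded towards the myopia colours in many of them.

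The summed level of all 38 genes depended on the scale. It was 2140 to 2347 CPM in myopia and 2498 to 2892 CPM in control on the TMM scale, so every myopia library lay below every control library. As a plain share of the named counts the same sum was 0.249% to 0.280% in myopia and 0.218% to 0.245% in control, so every myopia library lay above every control library. No direction is therefore given for the sum.

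Among the genes of pyruvate entry, 3 of the 4 listed subunits of the pyruvate dehydrogenase complex rose and pyruvate carboxylase fell. PDHA1, the catalytic alpha subunit, had 68.7, 83.8, 81.1, 72.3 and 71.3 CPM in myopia libraries 1 to 5, against 44.2, 38.5, 45.3, 48.5 and 48.9 CPM in control libraries 1 to 5. The groups did not overlap, and the log2 fold change was 0.74 ± 0.09 (SE; adjusted p = 9.44e-06). DLD, the lipoamide dehydrogenase that the complex shares with oxoglutarate dehydrogenase, averaged 73.1 ± 4.07 CPM in myopia and 45.6 ± 6.71 CPM in control (SD, n = 5 each), a log2 fold change of 0.68 ± 0.10 (adjusted p = 4.55e-05). DLAT, the acetyltransferase core, averaged 37.3 ± 1.12 CPM in myopia and 26.6 ± 4.44 CPM in control, a log2 fold change of 0.49 ± 0.11 (adjusted p = 0.00143). PDHB, the partner of PDHA1 in the same heterotetramer, averaged 53.5 ± 7.10 CPM in myopia and 54.3 ± 2.76 CPM in control and did not pass (-0.02 ± 0.10, adjusted p = 0.845). Its sign turned with upper-quartile factors (0.046) and with total count scaling (0.42, where it passed, adjusted p = 0.00284). PC, pyruvate carboxylase, which makes oxaloacetate to refill the TCA cycle, had 49.5, 43.0, 43.1, 49.4 and 49.5 CPM in myopia libraries 1 to 5, against 69.9, 77.8, 64.8, 59.6 and 61.8 CPM in control libraries 1 to 5. Every myopia library was lower than every control library, and the difference was -0.51 ± 0.09 on the log2 scale (adjusted p = 0.000246). This fall was not called with total count scaling (-0.05, adjusted p = 0.634).

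The regulators of pyruvate dehydrogenase split, with 1 kinase lower and 1 kinase and 1 phosphatase higher. Pdk2, a broadly expressed kinase that inactivates the complex, had 47.9, 51.4, 53.5, 50.3 and 48.5 CPM in myopia libraries 1 to 5, against 111, 113, 110.0, 90.7 and 79.6 CPM in control libraries 1 to 5. Control libraries 4 and 5 were the lowest of the untreated libraries, yet all 5 lay above myopia, and the log2 fold change was -1.003 ± 0.10 (adjusted p = 2.28e-06). Pdk4, the kinase known to respond to fasting and fatty acids in other tissues, had 132, 100.4, 105, 154 and 89.6 CPM in myopia libraries 1 to 5, against 50.4, 51.1, 84.4, 82.1 and 80.1 CPM in control libraries 1 to 5. The highest untreated library lay just under the lowest myopia library, and the log2 fold change was 0.74 ± 0.19 (adjusted p = 0.00306). Pdp1, the phosphatase that reactivates the complex, had 60.3, 58.2, 60.4, 49.96 and 51.9 CPM in myopia libraries 1 to 5, against 21.2, 23.0, 24.2, 25.2 and 33.5 CPM in control libraries 1 to 5. Its lowest myopia library lay well above control library 5, the highest of its group, and the difference was 1.14 ± 0.12 on the log2 scale (adjusted p = 2.62e-06). These 3 calls held in direction under RLE, upper-quartile and total count scaling.

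The count ratio of Pdk4 to Pdk2 within a library, which no scaling factor can change, was 2.75, 1.95, 1.95, 3.06 and 1.85 in myopia libraries 1 to 5 and 0.454, 0.451, 0.768, 0.905 and 1.01 in control libraries 1 to 5. Every myopia library had a higher ratio than any control library. Counts are not corrected for gene length, so a ratio is compared between the groups and its own level is not read. The mean log2 ratio was 1.18 ± 0.33 in myopia and -0.56 ± 0.55 in control (SD, n = 5 each), a difference of 1.74 with an exact two-sided permutation p of 0.00794, the smallest that 5 against 5 libraries can give (adjusted p = 0.00866 over 12 ratios). The ratio of Pdp1 to Pdk2 was 0.993 to 1.26 in myopia and 0.191 to 0.420 in control, a log2 difference of 2.15 with the same exact p. All 12 pairs were chosen with earlier results of these data known, so the p-values of ratios are descriptions and not independent support.

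**Figure D2:**
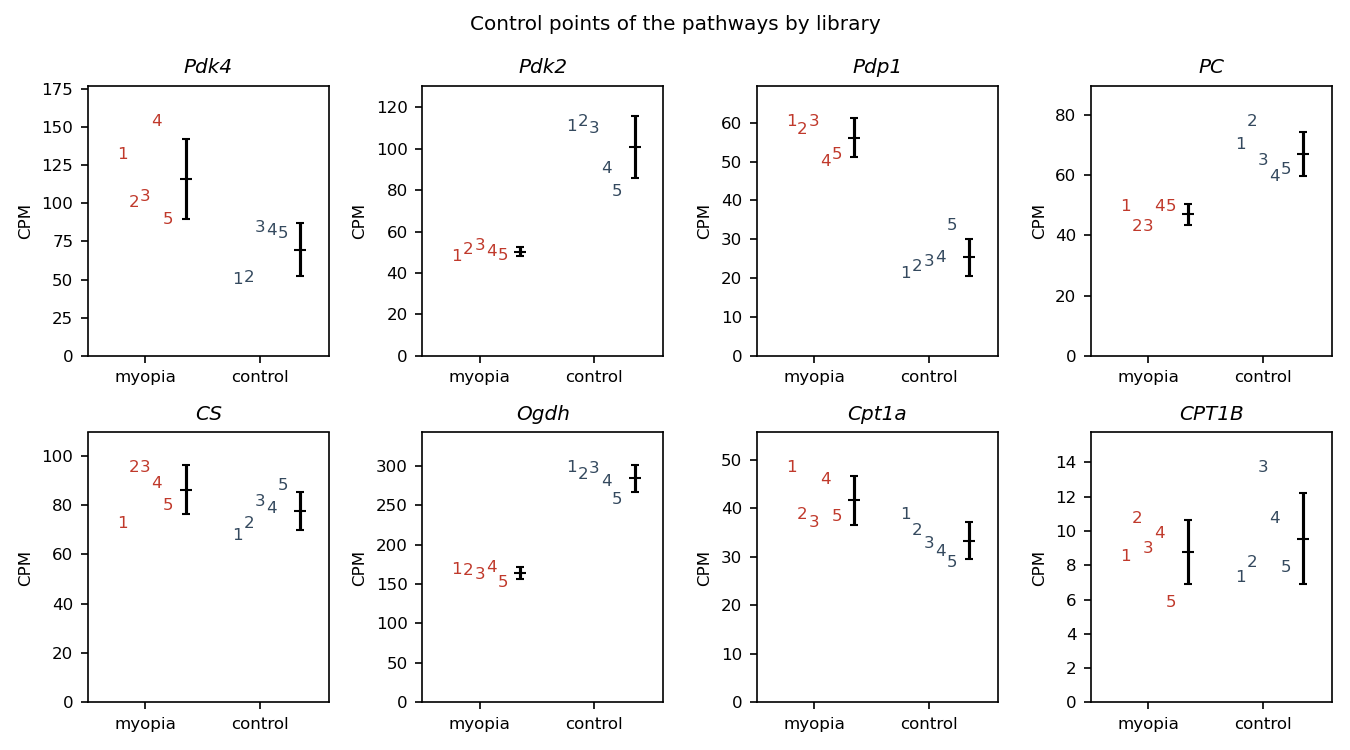
CPM of 8 regulatory or entry-step genes, myopia left and control right. Digits are the library numbers, and the bar beside each group is the mean ± SD (n = 5). Pdk2, PC and Ogdh show myopia below control and Pdk4 and Pdp1 show it above, while CS, Cpt1a and CPT1B overlap.

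Of 7 other genes of pyruvate handling, 5 rose, 1 fell and 1 did not pass, where the shares over all genes were 36.9% higher and 35.1% lower. Their median log2 fold change was 1.03. PDK3 and PDK1, the remaining kinase isoforms, had log2 fold changes of 1.09 ± 0.09 (adjusted p = 5.68e-07) and 1.03 ± 0.09 (adjusted p = 5.78e-07). PDP2, the second phosphatase, averaged 5.65 ± 0.595 CPM in myopia and 0.670 ± 0.559 CPM in control (SD, n = 5 each), or 3.05 ± 0.45 on the log2 scale (adjusted p = 3.91e-05). Without control libraries 4 and 5 that value was 4.18. MPC2, a subunit of the pyruvate carrier of the inner membrane, fell (-0.88 ± 0.11, adjusted p = 1.17e-05). Its partner MPC1, singled out with its value known, was not called (-0.09 ± 0.10, adjusted p = 0.434), and its sign turned with total count scaling (0.35, adjusted p = 0.0107). PDPR, a regulatory subunit of the phosphatase and also singled out with its value known, rose (1.15 ± 0.29, adjusted p = 0.00351). Its groups overlapped, with 19.3 CPM in control library 5 and 16.5 CPM in myopia library 5. Without control libraries 4 and 5 its log2 fold change was 1.74.

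In the TCA cycle itself, 6 of 12 members fell (50%), 2 rose (16.7%) and 4 did not pass. Over all genes tested, 35.1% were called lower and 36.9% higher. With total count scaling 6 of the 12 were called higher and 5 lower, against 52.0% and 18.7% of all genes. The median log2 fold change of the 12 members was -0.26 with TMM and 0.19 with total count scaling. CS, citrate synthase, the entry enzyme often used as a measure of mitochondrial content, had 72.3, 95.1, 95.03, 88.8 and 79.8 CPM in myopia libraries 1 to 5, against 67.6, 72.3, 81.2, 78.7 and 87.7 CPM in control libraries 1 to 5. The groups overlapped and the gene did not pass (0.15 ± 0.10, adjusted p = 0.186). With total count scaling it passed as higher (0.59, adjusted p = 0.00121). FH, fumarase, also overlapped, at 36.3 ± 2.82 CPM in myopia and 38.7 ± 2.18 CPM in control (-0.09 ± 0.08, adjusted p = 0.318), with the sign turned by total count scaling (0.35, adjusted p = 0.00227).

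The 3 subunits of the NAD-dependent isocitrate dehydrogenase did not move together. Idh3g, a regulatory subunit, had 47.0, 52.8, 49.4, 51.3 and 53.3 CPM in myopia libraries 1 to 5, against 132, 116, 125, 101 and 88.9 CPM in control libraries 1 to 5. Control libraries 4 and 5 were the lowest of their group and still above all myopia libraries. The log2 fold change was -1.15 ± 0.11 (adjusted p = 1.15e-06). IDH3B, another non-catalytic subunit, averaged 52.4 ± 3.31 CPM in myopia and 85.6 ± 9.64 CPM in control (-0.71 ± 0.09, adjusted p = 1.5e-05), again with no overlap. IDH3A, the catalytic subunit, averaged 64.2 ± 7.79 CPM in myopia and 66.1 ± 6.58 CPM in control and did not pass (-0.04 ± 0.10, adjusted p = 0.721), with a sign that turned under upper-quartile (0.024) and total count scaling (0.39, adjusted p = 0.0119). The count ratio of IDH3A to Idh3g was 1.35, 1.28, 1.52, 1.05 and 1.16 in myopia libraries 1 to 5 and 0.445, 0.515, 0.539, 0.712 and 0.819 in control libraries 1 to 5. It was higher in every myopia library than in any control library, a log2 difference of 1.09 (exact two-sided permutation p = 0.00794, adjusted p = 0.00866). That of IDH3A to IDH3B was 1.10 to 1.34 in myopia and 0.648 to 0.996 in control, a log2 difference of 0.66 with the same exact p.

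In oxoglutarate dehydrogenase both of its own subunits fell and the shared one rose. Ogdh, the dehydrogenase subunit of this rate-controlling complex, had 168, 167, 162, 172 and 151 CPM in myopia libraries 1 to 5, against 297, 289, 297, 280.1 and 257 CPM in control libraries 1 to 5. The myopia libraries were close to each other and far below control (-0.79 ± 0.08, adjusted p = 1.94e-06). Dlst, the succinyltransferase core, averaged 76.3 ± 1.17 CPM in myopia and 102 ± 7.65 CPM in control (SD, n = 5 each) with no overlap (-0.42 ± 0.08, adjusted p = 0.000217), a fall whose sign turned with total count scaling (0.03, adjusted p = 0.666). DLD, described above, rose.

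Succinyl-CoA ligase, the step that makes ATP or GTP directly, split by subunit. SUCLA2, which confers ATP specificity, had 43.9, 51.0, 52.6, 44.5 and 45.5 CPM in myopia libraries 1 to 5, against 12.7, 15.01, 13.3, 21.7 and 24.3 CPM in control libraries 1 to 5. Every myopia library had more than any control library, and control libraries 4 and 5 were the highest untreated ones (1.45 ± 0.17, adjusted p = 6.48e-06). SUCLG2, which confers GTP specificity, averaged 57.0 ± 3.30 CPM in myopia and 39.7 ± 4.65 CPM in control (0.52 ± 0.09, adjusted p = 0.00019). SUCLG1, the alpha subunit that both forms need, averaged 69.9 ± 10.2 CPM in myopia and 129 ± 23.4 CPM in control and moved the other way (-0.89 ± 0.14, adjusted p = 6.08e-05). Within a library, the ratio of SUCLA2 to SUCLG2 counts was 0.801, 0.857, 0.854, 0.813 and 0.835 in myopia libraries 1 to 5 and 0.363, 0.413, 0.322, 0.558 and 0.522 in control libraries 1 to 5. The myopia libraries were nearly equal to each other and the control libraries spread over a wider range below them, a log2 difference of 0.96 (exact two-sided permutation p = 0.00794, adjusted p = 0.00866).

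Of the malate dehydrogenases, the mitochondrial one fell and the cytosolic one did not pass. Mdh2, the mitochondrial enzyme of the cycle, averaged 99.5 ± 4.94 CPM in myopia and 188 ± 23.9 CPM in control (SD, n = 5 each) with no overlap, a log2 fold change of -0.92 ± 0.10 (adjusted p = 2.39e-06). Mdh1, the cytosolic enzyme of the malate-aspartate shuttle, averaged 99.0 ± 17.4 CPM in myopia and 85.9 ± 6.49 CPM in control and did not pass (0.20 ± 0.12, adjusted p = 0.129), though it passed without myopia library 1 (0.28, adjusted p = 0.036) and with total count scaling (0.64, adjusted p = 0.000678). The Mdh1 to Mdh2 count ratio was 0.820 to 1.18 in myopia and 0.392 to 0.589 in control, a log2 difference of 1.10 (exact two-sided permutation p = 0.00794, adjusted p = 0.00866).

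Of 18 other TCA cycle and anaplerotic genes measured, 5 rose (27.8%), 9 fell (50%) and 4 did not pass. The shares among all genes tested were 36.9% higher and 35.1% lower. With total count scaling 8 of the 18 were called higher and 4 lower, against 52.0% and 18.7% of all genes. These 18 had a median log2 fold change of 0.12 on that scale and -0.32 with TMM. IDH2, the NADP-dependent mitochondrial isocitrate dehydrogenase, averaged 118 ± 9.26 CPM in myopia and 211 ± 19.9 CPM in control (-0.83 ± 0.09, adjusted p = 3.57e-06). ME2, a mitochondrial malic enzyme, rose, at 15.3 ± 0.802 CPM in myopia and 6.16 ± 1.13 CPM in control (1.31 ± 0.14, adjusted p = 2.69e-06). Succinate dehydrogenase, the enzyme shared by the cycle and the respiratory chain, again split. Its iron-sulfur subunit SDHB fell (-1.12 ± 0.14, adjusted p = 1.03e-05). The remaining subunits were named after their values were seen. SDHC fell (-0.53 ± 0.09), but was not called with total count scaling (-0.08, adjusted p = 0.366). SDHD rose (0.30 ± 0.10), with groups that overlapped. The flavoprotein SDHA did not pass (-0.04 ± 0.08, adjusted p = 0.693) and turned sign with total count scaling (0.41).

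**Figure D3:**
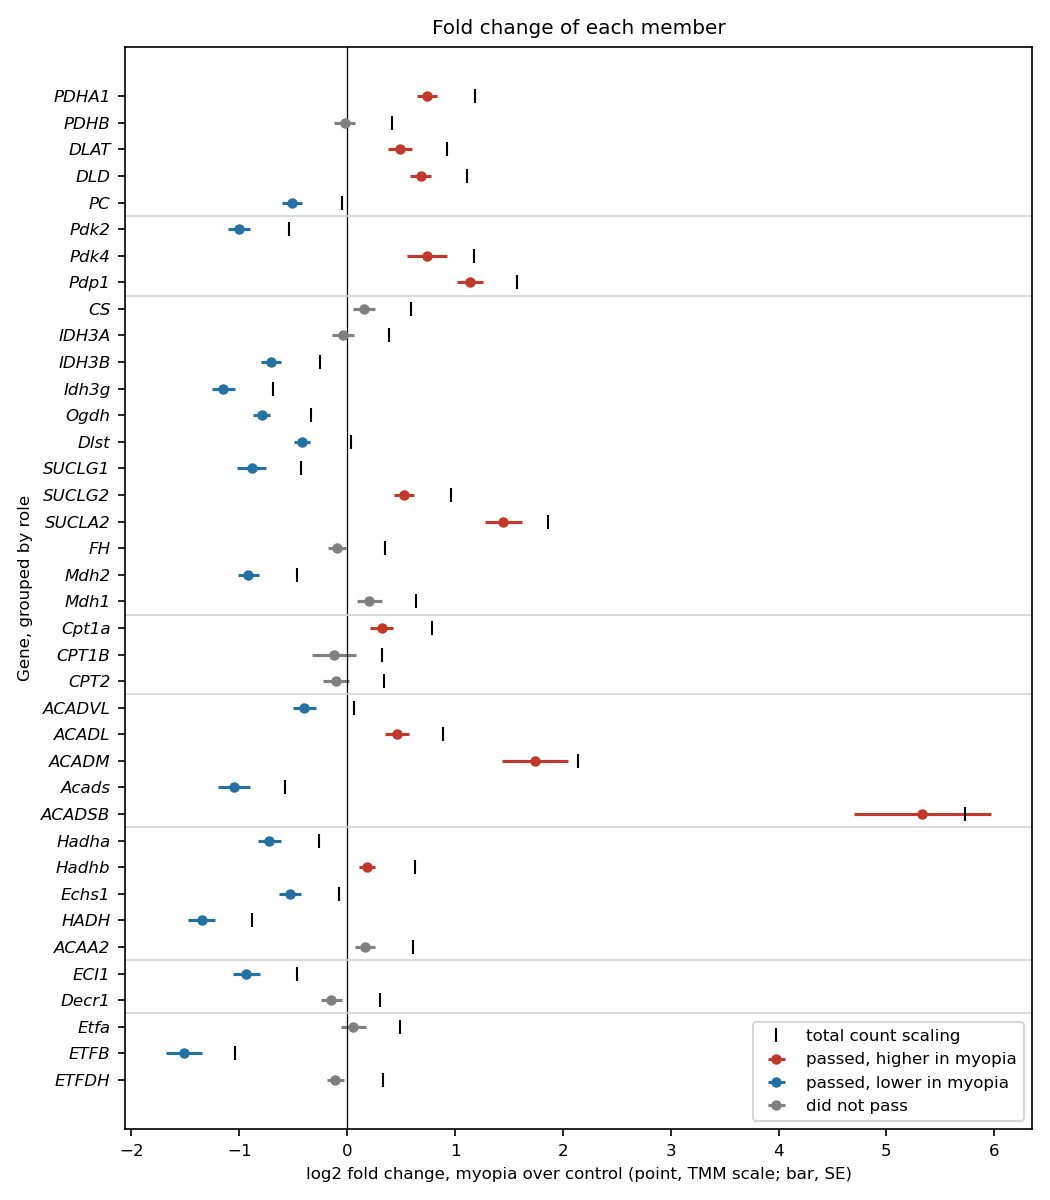
Log2 fold change of each member, myopia over control, by role. Points are the estimates on the TMM scale with bars of 1 SE, coloured by whether the adjusted p passed 0.05, and vertical ticks are the same fold changes with total count scaling. ACADSB lies far to the right at 5.33, ETFB farthest to the left at -1.51, and the ticks lie to the right of every point.

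In fatty acid oxidation, 7 of 18 members fell (38.9%), 5 rose (27.8%) and 6 did not pass. Over all genes tested, 35.1% were called lower and 36.9% higher. With total count scaling 10 of the 18 were called higher and 5 lower, where the shares over all genes were 52.0% and 18.7%. The median log2 fold change of the 18 members was then 0.33, against -0.12 with TMM. Of 3 genes of the carnitine shuttle, which carries long fatty acids into the mitochondrion, 1 rose and 2 did not pass. Cpt1a, the rate-controlling transferase of the outer membrane, had 48.4, 38.7, 37.1, 45.9 and 38.3 CPM in myopia libraries 1 to 5, against 38.7, 35.5, 32.7, 31.1 and 28.8 CPM in control libraries 1 to 5. Control library 1 overlapped the myopia range, and the gene passed with a small rise (0.32 ± 0.11, adjusted p = 0.0159). Unlike most members called higher, its control libraries 4 and 5 were the lowest of their group, and without them the call ended (0.24, adjusted p = 0.0633). CPT1B, the muscle isoform, had 8.49, 10.7, 8.95, 9.87 and 5.85 CPM in myopia libraries 1 to 5, against 7.30, 8.14, 13.7, 10.7 and 7.87 CPM in control libraries 1 to 5. The groups overlapped and the gene did not pass (-0.12 ± 0.20, adjusted p = 0.605), with a sign that turned under total count scaling (0.32) and without control library 3 (0.054). Its highest value was in control library 3, where the skeletal muscle markers were also highest (8518 CPM), and its lowest in myopia library 5, where they were lowest (2335 CPM). Libraries between these did not keep the same order: the markers summed to 4689 CPM in control library 1 and 3047 CPM in myopia library 1, where CPT1B was higher. A link between CPT1B and muscle was not tested. The count ratio of CPT1B to Cpt1a was 0.153 to 0.277 in myopia and 0.189 to 0.419 in control, a log2 difference of -0.43 that did not pass (exact two-sided permutation p = 0.135, adjusted p = 0.135). CPT2, the inner-membrane transferase, averaged 16.8 ± 2.56 CPM in myopia and 18.1 ± 1.20 CPM in control and did not pass (-0.10 ± 0.12, adjusted p = 0.451), with the sign turned by total count scaling (0.34, adjusted p = 0.0311).

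The acyl-CoA dehydrogenases, which take the first oxidative step and differ in the chain length they accept, spread from -1.05 to 5.33 on the log2 scale, with 3 higher and 2 lower. ACADSB, which acts on short branched chains from isoleucine, had raw counts of 482, 456, 487, 566 and 446 in myopia libraries 1 to 5, against 0, 3, 2, 4 and 37 in control libraries 1 to 5. Scaled, this was 12.5, 12.8, 12.5, 13.9 and 11.7 CPM in myopia libraries 1 to 5, against 0, 0.106, 0.0683, 0.131 and 1.19 CPM in control libraries 1 to 5. Myopia libraries were alike, and control libraries 1 to 4 were near 0 with control library 5 apart from them. Of 46 control counts in all, 37 were in control library 5. The fitted log2 fold change was 5.33 ± 0.63 (adjusted p = 1.09e-05). It was 7.28 without control library 5 and 7.65 without control libraries 4 and 5, and at such low control counts it depends on the prior count of the fit.

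ACADM, the medium-chain enzyme, had 30.6, 39.1, 42.9, 29.8 and 27.6 CPM in myopia libraries 1 to 5, against 4.97, 6.80, 7.06, 14.4 and 17.4 CPM in control libraries 1 to 5. The groups were well apart, with control libraries 4 and 5 above the other untreated ones, and the log2 fold change was 1.74 ± 0.31 (adjusted p = 0.000266), or 2.45 without those 2 libraries. ACADL, the long-chain enzyme, averaged 77.3 ± 3.17 CPM in myopia and 56.1 ± 10.8 CPM in control (SD, n = 5 each), which is 0.46 ± 0.12 on the log2 scale (adjusted p = 0.00267). Against these, Acads, the short-chain enzyme, had 23.0, 22.0, 24.7, 23.0 and 23.9 CPM in myopia libraries 1 to 5, against 59.4, 55.2, 52.8, 42.8 and 31.4 CPM in control libraries 1 to 5. All myopia libraries lay between 22.0 and 24.7 CPM, below the lowest control library (-1.05 ± 0.15, adjusted p = 2.45e-05). ACADVL, the very-long-chain enzyme of the inner membrane, averaged 50.3 ± 3.51 CPM in myopia and 66.1 ± 9.61 CPM in control with some overlap (-0.40 ± 0.10, adjusted p = 0.00398), a fall whose sign turned with total count scaling (0.06, adjusted p = 0.511). The count ratio of ACADM to ACADVL was 0.652, 0.712, 0.883, 0.562 and 0.578 in myopia libraries 1 to 5 and 0.0656, 0.0995, 0.0964, 0.243 and 0.327 in control libraries 1 to 5. This was the largest shift among the 12 ratios, a log2 difference of 2.28 (exact two-sided permutation p = 0.00794, adjusted p = 0.00866), and 2.96 without control libraries 4 and 5.

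The mitochondrial trifunctional protein, which carries out the later steps on long chains, had subunits that differed in direction. Hadha, the alpha subunit, averaged 93.5 ± 5.52 CPM in myopia and 154 ± 22.6 CPM in control with no overlap (-0.72 ± 0.10, adjusted p = 3.64e-05). Hadhb, the beta subunit, had 85.7, 92.4, 96.3, 98.4 and 92.2 CPM in myopia libraries 1 to 5, against 77.2, 76.8, 86.1, 81.8 and 86.7 CPM in control libraries 1 to 5. The groups overlapped slightly, in control libraries 3 and 5 and myopia library 1, and the small rise passed narrowly (0.19 ± 0.08, adjusted p = 0.0392). It did not pass with RLE factors (adjusted p = 0.0651), without a filter (adjusted p = 0.0588), or without any 1 of control libraries 1, 2 or 4 or myopia libraries 2 to 5 (0.17 to 0.20, adjusted p from 0.0537 to 0.0815). Within a library, Hadha counts over Hadhb counts were 1.00, 1.08, 0.993, 0.911 and 1.04 in myopia libraries 1 to 5 and 2.24, 2.15, 1.99, 1.68 and 1.42 in control libraries 1 to 5. They were lower in every myopia library than in any control library, with control libraries 4 and 5 between, a log2 difference of -0.90 (exact two-sided permutation p = 0.00794, adjusted p = 0.00866).

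Among the soluble enzymes that shorten medium and short chains, HADH, the hydroxyacyl-CoA dehydrogenase, had 30.5, 31.8, 33.0, 31.98 and 31.4 CPM in myopia libraries 1 to 5, against 94.5, 86.7, 96.0, 64.7 and 62.1 CPM in control libraries 1 to 5. The myopia libraries were nearly equal and far below all control libraries (-1.35 ± 0.13, adjusted p = 1.12e-06). Echs1, the short-chain enoyl-CoA hydratase, averaged 62.3 ± 5.08 CPM in myopia and 89.9 ± 11.1 CPM in control (SD, n = 5 each; -0.53 ± 0.10, adjusted p = 0.000304), a fall that was not called with total count scaling (-0.07, adjusted p = 0.394). ACAA2, the thiolase that ends the round, averaged 42.4 ± 3.57 CPM in myopia and 37.8 ± 4.02 CPM in control and did not pass (0.17 ± 0.10, adjusted p = 0.135), but passed as higher with upper-quartile factors (0.24, adjusted p = 0.0382) and with total count scaling (0.61, adjusted p = 0.000219).

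For unsaturated fatty acids, the isomerase fell and the reductase did not pass. ECI1, the enoyl-CoA isomerase, had 45.2, 42.5, 49.2, 47.1 and 47.7 CPM in myopia libraries 1 to 5, against 106, 100.3, 96.9, 70.4 and 69.0 CPM in control libraries 1 to 5. Control libraries 4 and 5 lay between the other untreated libraries and myopia (-0.93 ± 0.13, adjusted p = 1.85e-05). Decr1, the dienoyl-CoA reductase, had 34.2, 41.4, 47.6, 38.1 and 44.3 CPM in myopia libraries 1 to 5, against 49.0, 48.4, 44.8, 44.5 and 40.8 CPM in control libraries 1 to 5, with overlap (-0.15 ± 0.10, adjusted p = 0.202) and a sign that turned with total count scaling (0.31, adjusted p = 0.00939).

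The electron transfer flavoprotein, which collects electrons from all acyl-CoA dehydrogenases, had 1 subunit that fell and 1 that did not pass. ETFB, its beta subunit, had 35.9, 36.4, 33.6, 34.5 and 34.1 CPM in myopia libraries 1 to 5, against 122, 113, 123, 75.2 and 63.8 CPM in control libraries 1 to 5. Myopia libraries lay between 33.6 and 36.4 CPM, and control libraries 4 and 5 lay well below the other untreated ones (-1.51 ± 0.17, adjusted p = 3.79e-06). Etfa, the alpha subunit, had 42.0, 55.1, 57.0, 45.4 and 55.3 CPM in myopia libraries 1 to 5, against 40.5, 47.9, 46.4, 55.9 and 53.8 CPM in control libraries 1 to 5, which overlapped and did not pass (0.06 ± 0.11, adjusted p = 0.661) except with total count scaling (0.49, adjusted p = 0.00638). The count ratio of Etfa to ETFB was 1.17, 1.51, 1.70, 1.32 and 1.62 in myopia libraries 1 to 5 and 0.331, 0.425, 0.378, 0.743 and 0.843 in control libraries 1 to 5. The groups did not overlap. The log2 difference was 1.52 (exact two-sided permutation p = 0.00794, adjusted p = 0.00866). ETFDH, the membrane oxidoreductase that passes the electrons on to ubiquinone, averaged 68.5 ± 3.66 CPM in myopia and 73.9 ± 4.60 CPM in control and did not pass (-0.11 ± 0.08, adjusted p = 0.215), with the sign turned by total count scaling (0.34, adjusted p = 0.0111).

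Over the 12 ratios, 11 passed and their groups did not overlap, and 1 did not pass. Of single genes tested, 57.8% had groups without overlap, and no such share was computed for other pairs of genes. The count of ratios is therefore not read as particular to these enzymes. The remaining pairs were PDHA1 to PDHB, at 1.29 to 1.62 in myopia and 0.711 to 0.889 in control (log2 difference 0.77), and PC to PDHA1, at 0.514 to 0.720 in myopia and 1.23 to 2.02 in control (log2 difference -1.25), both with an exact two-sided permutation p of 0.00794 (adjusted p = 0.00866). These pairs were chosen with earlier results of the data known, and members of a pair do not give independent evidence where they share a gene with another pair. In 10 of the 11 that passed, control libraries 4 and 5 lay between control libraries 1 to 3 and the myopia libraries. PDHA1 to PDHB was the exception, with control library 1 nearest to myopia.

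**Figure D4:**
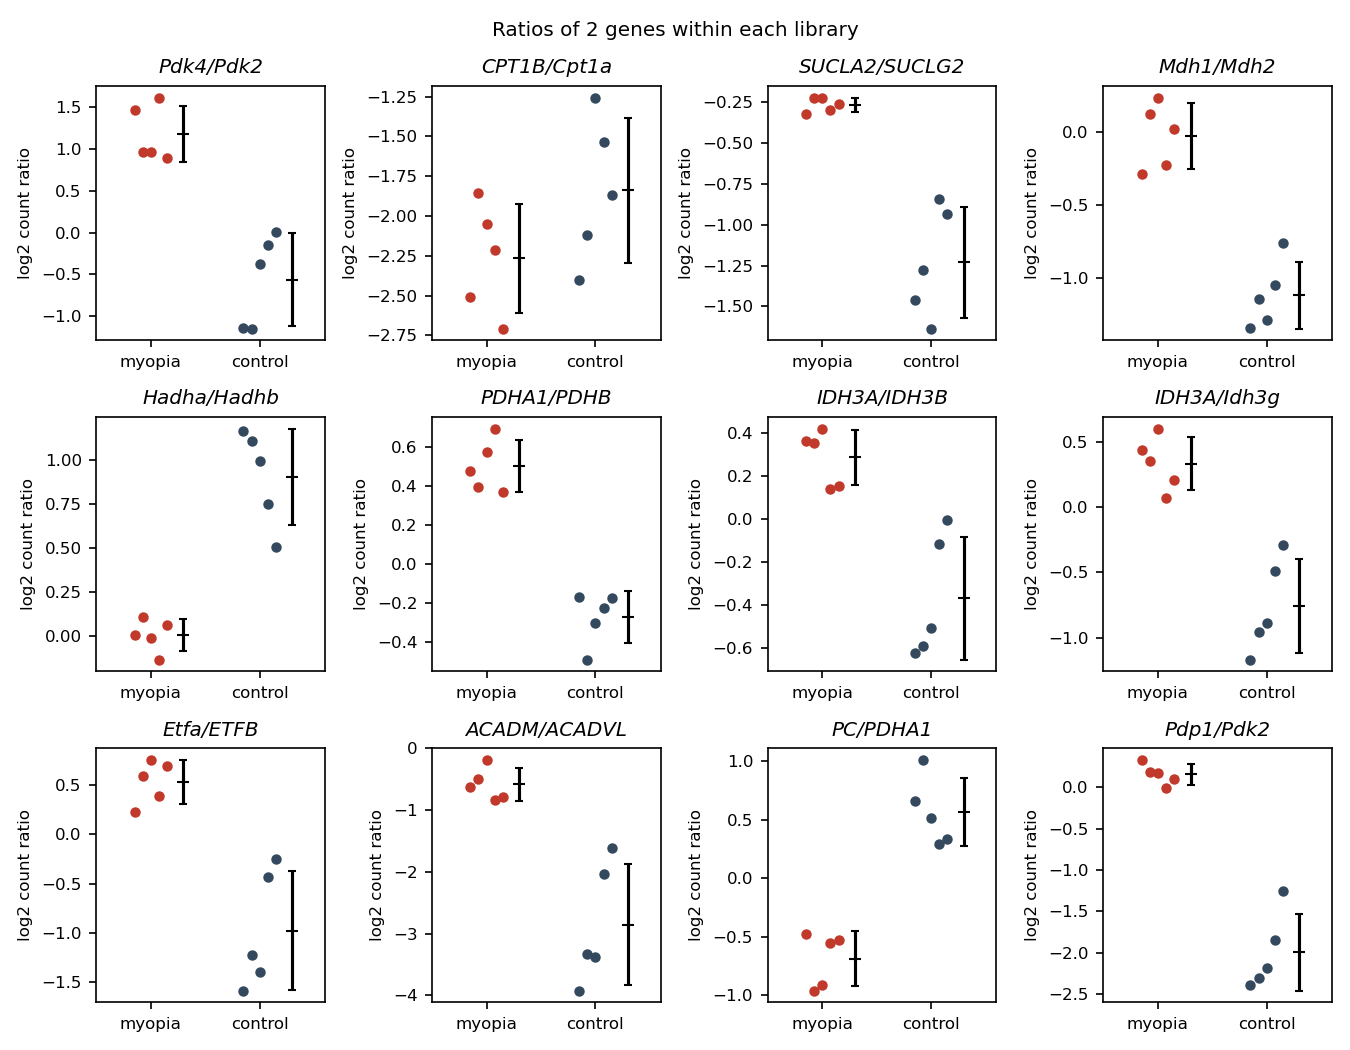
Log2 ratio of raw counts of 2 genes within each library, 1 panel per pair, myopia libraries left and control libraries right, in order of library number. Bars are the mean ± SD (n = 5). The groups are apart in every panel but that of CPT1B to Cpt1a.

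The same position of control libraries 4 and 5 was seen across single members. Of the 15 members that fell, all 15 had control libraries 4 and 5 below control libraries 1 to 3, against 61.2% of all genes called lower. Of the 12 that rose, 8 (66.7%) had them above, against 55.0% of all genes called higher. These shares are descriptions, with no test. Without control libraries 4 and 5, 11 members were called higher and 15 lower, against 38.3% and 34.7% of all genes, and the call of Cpt1a ended as given above. What sets them apart from control libraries 1 to 3 is not given in the labels, and its part in the differences between the groups was not tested.

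Other genes of fatty acid oxidation moved both ways: of 24 tested, 10 rose (41.7%), 10 fell (41.7%) and 4 did not pass. This even split, on the TMM scale, was near that of all genes tested, at 36.9% higher and 35.1% lower. With total count scaling 13 of the 24 were called higher and 3 lower, against 52.0% and 18.7% of all genes. These 24 had a median log2 fold change of -0.01 with TMM and 0.45 with total count scaling. ACSL4, an acyl-CoA synthetase that prefers arachidonate, averaged 56.7 ± 4.78 CPM in myopia and 22.9 ± 5.75 CPM in control (1.31 ± 0.15, adjusted p = 3.9e-06). HSD17B4, the bifunctional enzyme of peroxisomal beta-oxidation, rose (0.85 ± 0.11, adjusted p = 1.79e-05). HSD17B10, a mitochondrial enzyme of branched-chain breakdown, fell (-1.05 ± 0.14, adjusted p = 1.27e-05). Of 4 ketone body genes tested, 3 fell and 1 rose, and with total count scaling 2 were called lower and 1 higher. With 71.9% of all genes called, counts over so few genes are not read as particular to them. OXCT1, which activates ketone bodies at the cost of succinyl-CoA, averaged 144 ± 13.8 CPM in myopia and 56.3 ± 10.8 CPM in control (1.35 ± 0.13, adjusted p = 1.09e-06). Bdh1, which interconverts ketone bodies, and ACAT1, a mitochondrial thiolase, fell, at log2 fold changes of -1.19 ± 0.13 and -0.64 ± 0.13. The fall of ACAT1 was not called with total count scaling (-0.18, adjusted p = 0.11).

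Of 16 transcriptional and signalling regulators, 8 rose, 5 fell and 3 did not pass. Over all genes tested, 36.9% were called higher and 35.1% lower. With total count scaling 10 of the 16 were called higher and 3 lower, against 52.0% and 18.7% of all genes. The median log2 fold change of the regulators was 0.36 with TMM and 0.79 with total count scaling. Ppargc1a, the coactivator known for driving mitochondrial gene expression, averaged 3.43 ± 1.52 CPM in myopia and 0.503 ± 0.356 CPM in control (SD, n = 5 each), or 2.75 ± 0.48 on the log2 scale (adjusted p = 0.000162). Leaving out control libraries 4 and 5 made this 3.51. Its relative Ppargc1b averaged 18.1 ± 1.24 CPM in myopia and 7.42 ± 1.31 CPM in control (1.29 ± 0.13, adjusted p = 2.06e-06). TFAM, which packages and transcribes mitochondrial DNA, averaged 29.3 ± 3.56 CPM in myopia and 13.8 ± 1.51 CPM in control (1.08 ± 0.11, adjusted p = 2.62e-06). PPARA, the fatty acid receptor that drives beta-oxidation genes in liver, averaged 4.42 ± 1.24 CPM in myopia and 1.73 ± 0.935 CPM in control (1.34 ± 0.34, adjusted p = 0.00278). Its groups overlapped, with 3.24 CPM in control library 5 and 3.05 CPM in myopia library 5. Esrra and Ppard fell. Esrra, the orphan receptor that binds promoters of many TCA cycle genes, averaged 29.6 ± 0.636 CPM in myopia and 47.7 ± 3.69 CPM in control (-0.69 ± 0.08, adjusted p = 5e-06), and Ppard, a further fatty acid receptor, averaged 30.0 ± 2.16 CPM in myopia and 50.3 ± 1.33 CPM in control (-0.75 ± 0.08, adjusted p = 2.37e-06). PRKAA1, a catalytic subunit of the energy sensor AMP-activated kinase, singled out with its value known, rose, with low levels in control (20.9 ± 2.00 CPM in myopia and 2.95 ± 1.71 CPM in control; 2.82 ± 0.32, adjusted p = 5.93e-06). Without control libraries 4 and 5 its log2 fold change was 3.60.

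Of 18 mitochondrial housekeeping genes, 10 fell (55.6%), 2 rose (11.1%) and 6 did not pass. Over all genes tested, 35.1% were called lower and 36.9% higher. With total count scaling 8 of the 18 were called higher and 8 lower, against 52.0% and 18.7% of all genes. The median log2 fold change of the housekeeping genes was -0.27 with TMM and 0.17 with total count scaling. The prohibitins PHB and Phb2, scaffold proteins of the inner membrane, fell (-1.42 ± 0.13, adjusted p = 1.03e-06, and -1.20 ± 0.10, adjusted p = 4.28e-07). LONP1, a matrix protease, and TOMM40, the pore of the import channel, fell too (-1.36 ± 0.14, adjusted p = 1.96e-06, and -0.98 ± 0.10, adjusted p = 2.76e-06). Over the 6 lists together, 31 of 87 genes tested rose (35.6%) and 38 fell (43.7%), against 36.9% and 35.1% of all genes. With total count scaling 46 of the 87 were called higher and 21 lower, against 52.0% and 18.7% of all genes.

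**Figure D5:**
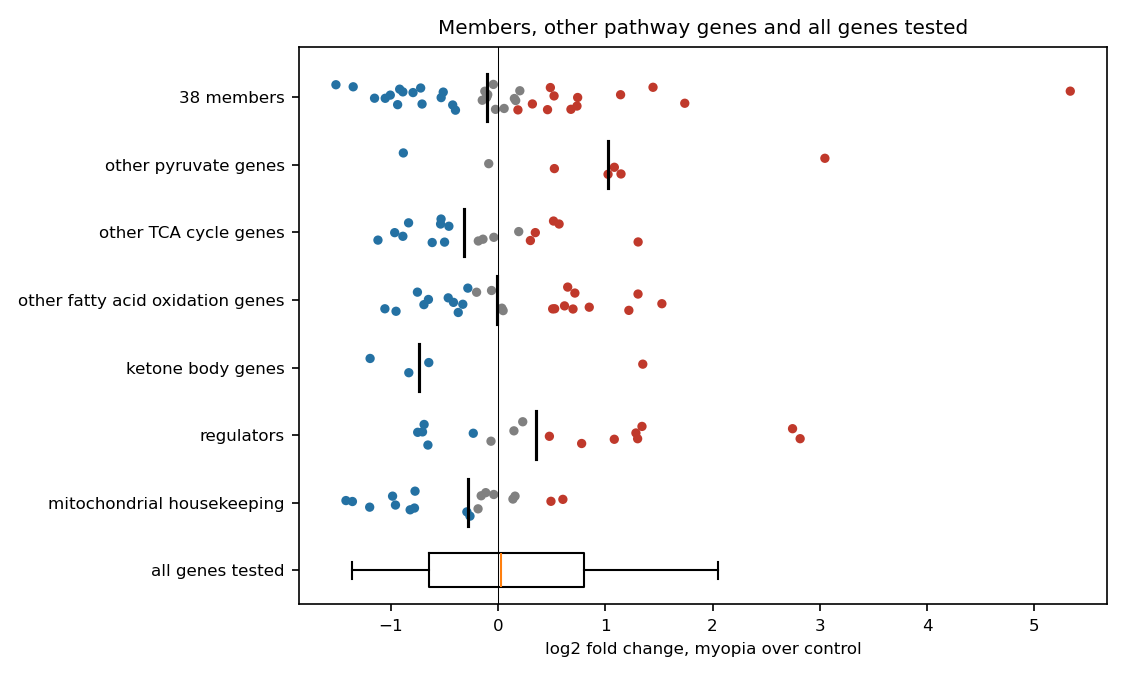
Log2 fold change, myopia over control, of the 38 members and of 6 lists of related genes. Points are genes, red where called higher, blue where called lower and grey where not passed, vertical lines are list medians, and the box at the bottom shows the median and quartiles of all genes tested with whiskers at the 5 and 95 percentiles. Each list holds points on both sides of 0.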

How the data were processed

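RNA was extracted from sclera and libraries were made with a SMARTER mRNA-Seq kit, per the labels' protocols. The authors deposited raw counts, whole numbers per gene symbol and library. Aligner, counter, annotation and strandedness were not given in the sources used here. The submitters' processing notes list the mouse builds GRCm38 and mm10 with no role. No coordinate, gene length or sequence is therefore given, and levels of different genes are not ranked; ratios of 2 genes are compared only between groups. All 38 member symbols are in a RefSeq table of the guinea pig.

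Library columns were matched to groups by title. Of 18079 lines, 437 had no symbol (0.751% to 0.824% of counts in myopia, 1.18% to 1.69% in control) and were left out. For a symbol on several lines the line with the highest mean was used. With filterByExpr (minimum count 10, minimum total 15), 14683 genes were tested and 2959 were not. The main test was edgeR 4.0.16 in R 4.3.3 (TMM, robust glmQLFit, glmQLFTest, group only, threshold 0.05); the SE of a log2 fold change is its size over the root of F. Ratios used counts + 0.5 within each library, with exact permutation over 252 assignments. No pair of replicates agreed within counting noise (chi-square over its degrees of freedom, 18.7 to 122). With 200 genes changed in data simulated for the same 14683 genes, 87.0% of 2-fold and 96.0% of 4-fold changes were recovered, with 15 unchanged genes called. In the real data 71.9% of genes were called. The simulation, with few genes changed and as many up as down, therefore cannot show whether the scaling holds here. Alternatives were RLE and upper-quartile factors, total count scaling, other filters, DESeq2 1.42.0, limma-voom (limma 3.58.1), no robust estimation, a replicate block, summed lines, and leaving out libraries.

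The members, lists, pairs and alternatives were chosen with earlier results of these data known. Values per library are given for CS, Ogdh, PC, Pdk2, Pdk4, Pdp1, Cpt1a and CPT1B and for the highest and lowest fold change in each role, and from each list at most 4 genes by smallest p are named, plus PPARA, Ppargc1a, Esrra and TFAM; ACADM was added after its value was seen. Some genes that this rule names are not reported here.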

Additional observations from a re-analysis of the deposited data

Results flagged for a closer look

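In 152 groups of 5 values (members, named list genes and ratios), 4 had a library whose gap to the nearest other was large for the range of its group, where chance gives about 1 in 20. ACADSB stood at 1.19 CPM in control library 5 and at 0 to 0.131 CPM in the other control libraries. ME2 stood at 16.7 CPM in myopia library 1 and at 14.8 to 15.02 CPM in the other myopia libraries. Ppargc1b stood at 9.64 CPM in control library 4 and at 6.45 to 7.29 CPM in the other control libraries. TOMM40 stood at 15.8 CPM in myopia library 3 and at 19.5 to 20.8 CPM in the other myopia libraries.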

How the results depend on the processing

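Under 21 alternatives to the gene test, 759 of 798 member values kept their direction and their side of the threshold, and 21 of 38 members did so under every one. With total count scaling 22 members were called higher (12 with TMM), 2752 genes lower (5149 with TMM) and 21 other pathway genes lower (38 with TMM). Of the 10383 genes it called, 73.5% were higher, against 51.2% of 10561 with TMM. That scaling turned the sign of PDHB (0.42), IDH3A (0.39), Dlst (0.034), FH (0.35), CPT1B (0.32), CPT2 (0.34), ACADVL (0.065), Decr1 (0.31) and ETFDH (0.34). Upper-quartile factors turned PDHB (0.046) and IDH3A (0.024), and leaving out control libraries 4 and 5 turned the same pair (0.019 and 0.062). Leaving out 1 library moved PDHB between -0.093 and 0.036, IDH3A between -0.10 and 0.016 and CPT1B between -0.20 and 0.054. None of these but Dlst and ACADVL were called at first. The causes were not tested.

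The labels do not say that replicate numbers pair the libraries. Deviations of same-numbered libraries correlated at -0.13 to 0.01, which cannot show which eyes share an animal. With the replicate block 11 members were higher and 15 lower, with Hadhb lost (adjusted p = 0.078). Sign-flip tests of the ratios then cannot go below an exact p of 0.0625, so none passed, at unchanged differences of 1.74 (Pdk4/Pdk2), 0.96 (SUCLA2/SUCLG2), 1.10 (Mdh1/Mdh2), -0.90 (Hadha/Hadhb), 0.77 (PDHA1/PDHB), 0.66 (IDH3A/IDH3B), 1.09 (IDH3A/Idh3g), 1.52 (Etfa/ETFB), 2.28 (ACADM/ACADVL), -1.25 (PC/PDHA1) and 2.15 (Pdp1/Pdk2). Those 11 ratios passed without any 1 library and without control libraries 4 and 5. The fold change of ACADSB rests on few control counts, 46 in all.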
